A study of Mus musculus with 8 samples.

Results

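The LIM homeobox Lhx genes encode transcription factors that pair a DNA-binding homeodomain with a pair of LIM domains, and 8 of them, Lhx1, Lhx2, Lhx3, Lhx4, Lhx5, Lhx6, Lhx8 and Lhx9, were followed here in the embryonic medial ganglionic eminence (MGE). Their probes were found by matching the accession of every non-control probe on the array to a gene symbol, which gave 10 probes out of 41174, or 8 genes out of 17178 matched symbols. Lhx8 and Lhx9 each had a pair of probes and the other genes had 1 each. RNA of E13.5 MGE tissue was hybridised to 8 single-colour arrays, 4 from WT embryos and 4 from Nkx2-1cKO embryos. Both groups were C57BL/6. Per the labels, both also carried a floxed Nkx2-1 allele over a wild-type allele (Nkx2-1flox/+), and they differed in the Olig2tva-cre transgene, absent in WT and present in Nkx2-1cKO. The labels thus give the mutant as heterozygous for the floxed allele, while the study's methods name homozygous floxed embryos. Cre was driven from Olig2 regulatory sequence, so recombination was limited to cells of the Olig2 lineage and their progeny. No source used here says that the arrays of a group came from separate embryos or litters, so p-values measure the spread between these samples, which may be technical.

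LIM homeodomain factors act in complexes: their LIM domains bind the LDB cofactors, and LMO proteins, which have LIM domains but no homeodomain, compete for the same cofactors. The family falls into closely related pairs, Lhx1 with Lhx5, Lhx2 with Lhx9, Lhx3 with Lhx4 and Lhx6 with Lhx8. In the ventral telencephalon Lhx6 is known for the specification and migration of cortical and striatal interneurons born in the MGE, and Lhx8 for the development of forebrain cholinergic neurons, both downstream of the homeobox factor NKX2-1.

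The scanner software called 71.1% to 79.5% of probes on an array well above background, and none was saturated. Values below are log2 signals relative to the 75th percentile of the same array. The targeted gene, Nkx2-1, read 1.87, 1.95, 1.82 and 1.85 on the WT arrays and -4.26, -4.58, -4.67 and -4.35 on the Nkx2-1cKO arrays, which left 1.24% of the WT signal (95% interval 1.04% to 1.47%). A heterozygous floxed embryo would keep an intact allele in every cell, so this value goes against the zygosity in the labels, though not against the group names; where the probe lies relative to the floxed part was not analysed here. The defining ventral forebrain genes Dlx1, Dlx2, Dlx5, Dlx6, Gad1, Gad2, Olig2 and Nkx6-2 were all measured, and 0 of these 8 genes passed the test in either direction. Their summed linear signal was 55.5 to 59.7 times the 75th percentile in WT and 50.7 to 54.7 times in Nkx2-1cKO. The sum was thus somewhat lower on every mutant array than on any WT array. WT replicate 1 stood apart among dim probes, taken as the dimmest of 5 equal bins of probes by mean signal. Each array was set against the median of the remaining arrays. The median deviation was 1.18 log2 units for WT replicate 1, against -0.41 to 0.23 for the other arrays. This touches the dim genes Lhx3, Lhx4, Lmx1b and Chat below. WT replicate 4 stood apart in mesenchymal and meningeal markers, whose summed signal was 8.02 times the 75th percentile there, 1.67 to 2.27 times on the other WT arrays and 1.71 to 2.32 times on the Nkx2-1cKO arrays. Without that array 3 Lhx probes were still called, all lower.

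All 10 Lhx probes passed the filter on dim probes, which kept a probe called well above background on 4 or more of the 8 arrays. In the Nkx2-1cKO MGE 3 of the 10 probes fell, those of Lhx6 and Lhx8, and 0 rose at an adjusted p under 0.05 (limma, Benjamini-Hochberg over 31288 probes). Of all tested probes, 0.614% were called lower and 0.422% higher. Counted by gene, with the brightest tested probe standing for each, 2 of the 8 Lhx genes were lower and 6 were not called, against 0.851% of 14453 genes lower and 0.491% higher. The same 3 probes were those whose WT and Nkx2-1cKO arrays did not overlap, as held for 6.46% of all tested probes. The median difference was -0.18 over the Lhx probes and -0.04 over all tested probes.

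**Figure D1:**
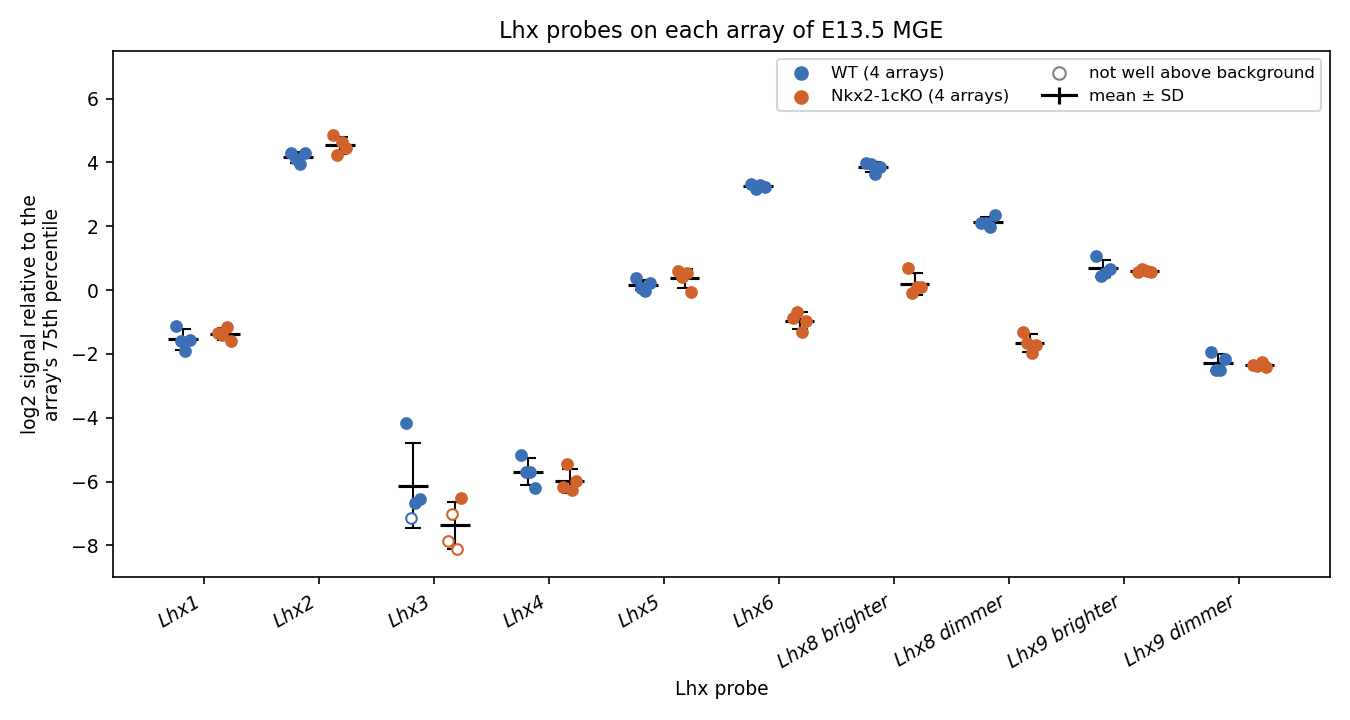
Log2 signal of the 10 Lhx probes on each array, relative to the array's 75th percentile, for 4 WT (blue) and 4 Nkx2-1cKO (orange) arrays, with mean ± SD; open points were not well above background. The groups stand apart for Lhx6 and both Lhx8 probes and overlap for the 7 others.

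Lhx6 read 3.31, 3.16, 3.30 and 3.22 on the WT arrays and -0.86, -0.69, -1.32 and -0.96 on the Nkx2-1cKO arrays. The WT arrays lay close together and every mutant array lay far below the lowest of them. The WT mean was 3.25 ± 0.07 and the mutant mean -0.96 ± 0.27 (SD, n = 4 each), so the mutant arrays spread more. The 95% interval of the difference ran from -4.49 to -3.92 log2 units (adjusted p = 5.22e-07, limma), which put the remaining signal between 4.45% and 6.62% of WT. Only the Nkx2-1 probe had a larger fall among all tested probes. Within the first slide the difference was -4.12 and within the second -4.28; each slide held 2 WT and 2 Nkx2-1cKO arrays. The mutant signal was not at the floor of the array: it stood 5.52 to 6.15 log2 units above the lowest signal that counted as well above background, so Lhx6 RNA was reduced and still measured in all 4 mutant samples. In bulk tissue, fewer cells with a transcript and less transcript per cell cannot be told apart.

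Lhx8 was measured with a pair of probes to the same transcript. The brighter read 3.99, 3.94, 3.63 and 3.87 on the WT arrays and 0.68, -0.09, 0.09 and 0.11 on the Nkx2-1cKO arrays. The dimmer read 2.11, 2.11, 1.99 and 2.35 on the WT arrays and -1.31, -1.65, -1.98 and -1.72 on the Nkx2-1cKO arrays. On both probes all mutant arrays were below all WT arrays, and replicate 1 was the highest mutant array. The 95% interval was -4.02 to -3.31 for the brighter probe (adjusted p = 5.24e-06, limma) and -4.12 to -3.48 for the dimmer one (adjusted p = 1.89e-06, limma), so the probes gave overlapping estimates. The mutant signal of the dimmer probe lay 4.86 to 5.44 log2 units above the array floor, and that of the brighter probe 6.69 to 7.43. Within the first slide the differences were -3.81 and -3.73 for the brighter and the dimmer probe, and within the second -3.52 and -3.88. For these 3 probes the exact two-sided permutation p was 0.0286, the smallest that 4 arrays against 4 allow.

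The sequence just upstream of both genes was read from the RefSeq promoter table for GRCm38.p6, to show what regulatory sequence lies at the genes that fell. The table held 11 windows of 250 bases for 7 of the 8 genes, 3 of them for Lhx6, and none for Lhx5. The whole Lhx8 window lies on the minus strand at chr3:154330561-154330810. For Lhx6, the 30 bases shown run from base -241 to base -212, counted from the start that lies farthest downstream, on the minus strand at chr2:36104272-36104301, with the only match to TAATTG, or CAATTA on the other strand, among the 11 windows in capitals.
Lhx8: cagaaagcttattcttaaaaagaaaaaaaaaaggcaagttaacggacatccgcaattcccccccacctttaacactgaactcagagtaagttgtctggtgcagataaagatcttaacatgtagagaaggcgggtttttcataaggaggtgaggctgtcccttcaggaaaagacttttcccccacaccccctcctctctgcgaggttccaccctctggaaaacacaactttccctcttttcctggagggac
Lhx6: cacgacaatttcTAATTGcaggtagtttgt

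Both of these windows had 46.0% GC, with 4 CpG in the Lhx8 window and 7 in the Lhx6 window. The windows of the other Lhx genes and the other Lhx6 starts ranged from 53.6% to 72.8% GC and from 4 to 26 CpG. The uncalled Lhx9 also had 4 CpG. The Lhx6 window was picked for its TAATTG match, and the other Lhx6 starts had 57.2% and 61.6% GC with 17 and 14 CpG. GC and CpG over the windows of all genes were not computed. Motifs were searched on both strands. TAATTA, a core read by many homeodomain proteins, was in 0 of the 11 windows and in 4.84% of 32851 windows of all genes. CAATTA, or TAATTG on the other strand, was in 1 of 11, the Lhx6 window above, and in 7.17% of all windows. The shorter ATTA, which CAATTA contains, was in 4 of 11 and in 54.9% of all windows. CAAGTG, a core read by NKX2-1, was in 0 of 11 and in 11.6% of all windows. A match describes letters and not binding, and its absence from 250 bases says nothing of sites elsewhere.

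The ratio of 2 probes on the same array does not depend on how arrays were scaled, and shows whether genes changed unequally. The log2 ratio of Lhx6 to the brighter Lhx8 probe was -0.69, -0.78, -0.34 and -0.65 on the WT arrays and -1.54, -0.59, -1.41 and -1.06 on the Nkx2-1cKO arrays. Lhx6 thus averaged 0.54 log2 units further down than Lhx8, but mutant replicate 2 lay within the WT range and the difference did not pass an exact two-sided permutation test (p = 0.114, adjusted p = 0.229 over 8 pairs). Both genes kept more of their signal than Nkx2-1. The log2 ratio of Lhx6 to Nkx2-1 went from between 1.21 and 1.48 on WT arrays to between 3.34 and 3.89 on mutant arrays, and that of Lhx8 to Nkx2-1 from between 1.82 and 2.12 to between 4.45 and 4.94. Neither overlapped (exact permutation p = 0.0286, the smallest possible, and 0.114 when adjusted over the 8 pairs). The paired probes moved together: the ratio of the brighter to the dimmer probe differed by 0.14 for Lhx8 (exact permutation p = 0.314) and by -0.0049 for Lhx9 (exact permutation p = 0.971).

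**Figure D2:**
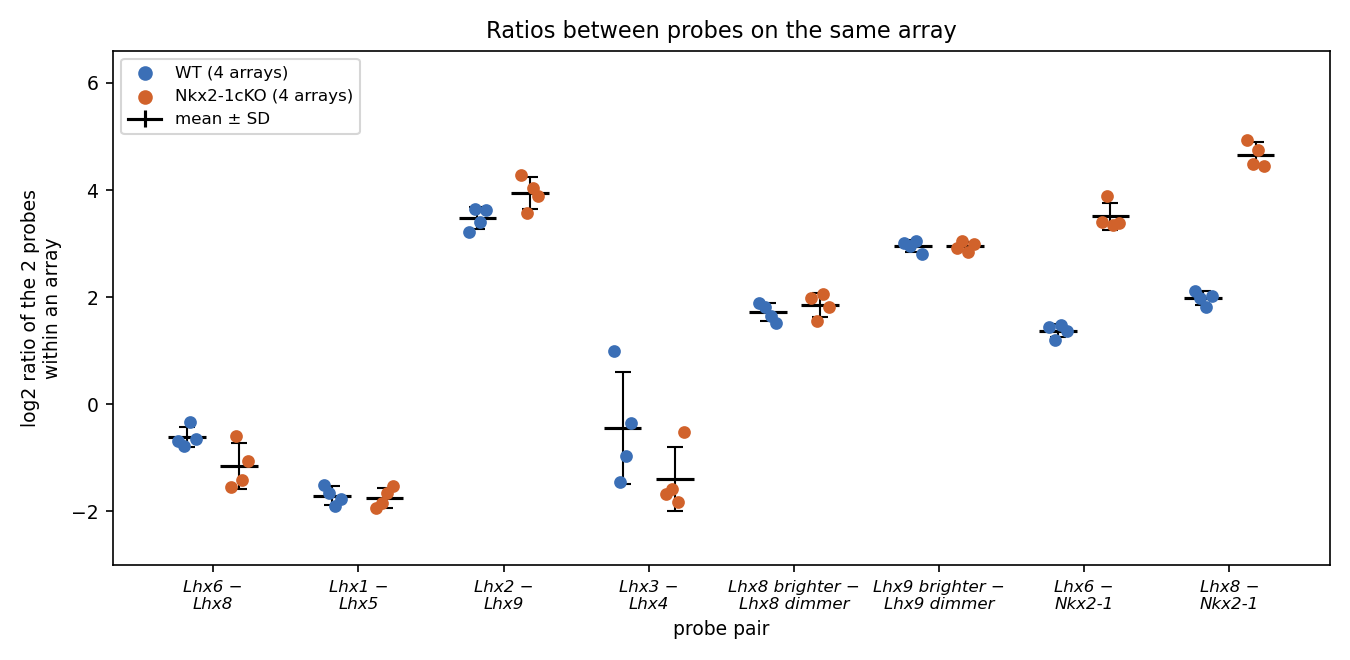
Log2 ratio of 2 probes on the same array for 8 pairs, for 4 WT (blue) and 4 Nkx2-1cKO (orange) arrays, with mean ± SD; where a gene has more than 1 probe and none is named, its brighter probe was used. The groups stand apart for the ratios of Lhx6 and of Lhx8 to Nkx2-1 and overlap for the 6 other pairs.

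Lhx2, a factor of pallial and eye progenitors, was the Lhx gene with the highest positive difference. It read 4.29, 4.09, 3.95 and 4.29 on the WT arrays and 4.85, 4.23, 4.63 and 4.46 on the Nkx2-1cKO arrays. Of the mutant arrays 3 lay above all WT arrays and replicate 2 lay within the WT range. The difference of 0.39 log2 units (95% interval 0.08 to 0.69, unadjusted p = 0.0177) had an adjusted p of 0.421 in limma and an exact permutation p of 0.0857, and so was not called. It was 0.23 within the first slide and 0.55 within the second. The 9 pallial marker genes included 0 that passed the test, with a median difference of -0.03, and their summed linear signal was 15.4 to 19.3 times the array's 75th percentile in WT and 12.9 to 20.4 times in Nkx2-1cKO. The part of pallial tissue in the Lhx2 values was not tested.

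Lhx9, the partner of Lhx2 and known from the developing diencephalon, was measured by a pair of probes designed to different transcripts. The brighter read 1.07, 0.44, 0.54 and 0.66 on the WT arrays and 0.56, 0.67, 0.60 and 0.57 on the Nkx2-1cKO arrays. The mutant arrays all lay inside the WT range, whose upper end was WT replicate 1. The differences were -0.08 (95% interval -0.37 to 0.21) for this probe and -0.07 (-0.39 to 0.24) for the dimmer one, with adjusted p of 0.841 and 0.867 in limma. These intervals leave room for a fall to 77.4% or a rise to 116% of WT for the brighter probe. The ratio of Lhx2 to Lhx9 within an array was 3.48 ± 0.21 in WT and 3.94 ± 0.30 in Nkx2-1cKO (SD, n = 4 each; exact permutation p = 0.0857, adjusted p = 0.229).

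Lhx1 and Lhx5 mark the cortical hem region, Cajal-Retzius neurons and parts of the diencephalon. Lhx1 ranged from -1.92 to -1.13 on the WT arrays and from -1.60 to -1.14 on the Nkx2-1cKO arrays. Lhx5 ranged from -0.02 to 0.37 and from -0.06 to 0.58. Both genes overlapped between the groups, with differences of 0.17 (95% interval -0.21 to 0.54, adjusted p = 0.741, limma) and 0.21 (-0.13 to 0.55, adjusted p = 0.671, limma). Single arrays moved these differences: Lhx1 was 0.042 without WT replicate 3, 0.088 without Nkx2-1cKO replicate 3 and 0.31 without WT replicate 1, and Lhx5 was 0.13 without Nkx2-1cKO replicate 1 and 0.35 without Nkx2-1cKO replicate 4. For both, the difference was larger in the second slide, at 0.32 and 0.41, than in the first, at 0.02 and 0.00. Their ratio within an array was -1.71 ± 0.17 in WT and -1.75 ± 0.18 in Nkx2-1cKO (SD, n = 4 each). Of 8 hem and Cajal-Retzius markers 6 were tested and 0 passed, with a summed signal of 5.61 to 7.03 times the 75th percentile in WT and 4.78 to 6.32 times in Nkx2-1cKO.

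Lhx3 and Lhx4, factors of motor neurons and the pituitary, were near the detection floor. Lhx3 read -4.17, -7.16, -6.67 and -6.53 on the WT arrays and -7.86, -7.03, -8.10 and -6.52 on the Nkx2-1cKO arrays, and it cleared the background on 3 WT arrays and on 1 mutant array. WT replicate 1, the array with raised dim probes, was the one high value. The difference of -1.24 (95% interval -2.76 to 0.27, adjusted p = 0.630, limma) was -0.59 without that array. Lhx4 was well above background on all 8 arrays, between -6.19 and -5.16 in WT and between -6.28 and -5.45 in Nkx2-1cKO. Its mutant signal was only 0.56 to 1.33 log2 units above the array floor, and its difference of -0.28 (95% interval -0.98 to 0.41, adjusted p = 0.758, limma) did not pass the test. It was -0.11 without WT replicate 1, -0.45 without WT replicate 4, -0.46 without Nkx2-1cKO replicate 2 and -0.18 without Nkx2-1cKO replicate 3. With another background correction both differences changed sign, to 0.55 for Lhx3 and 0.66 for Lhx4.

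**Figure D3:**
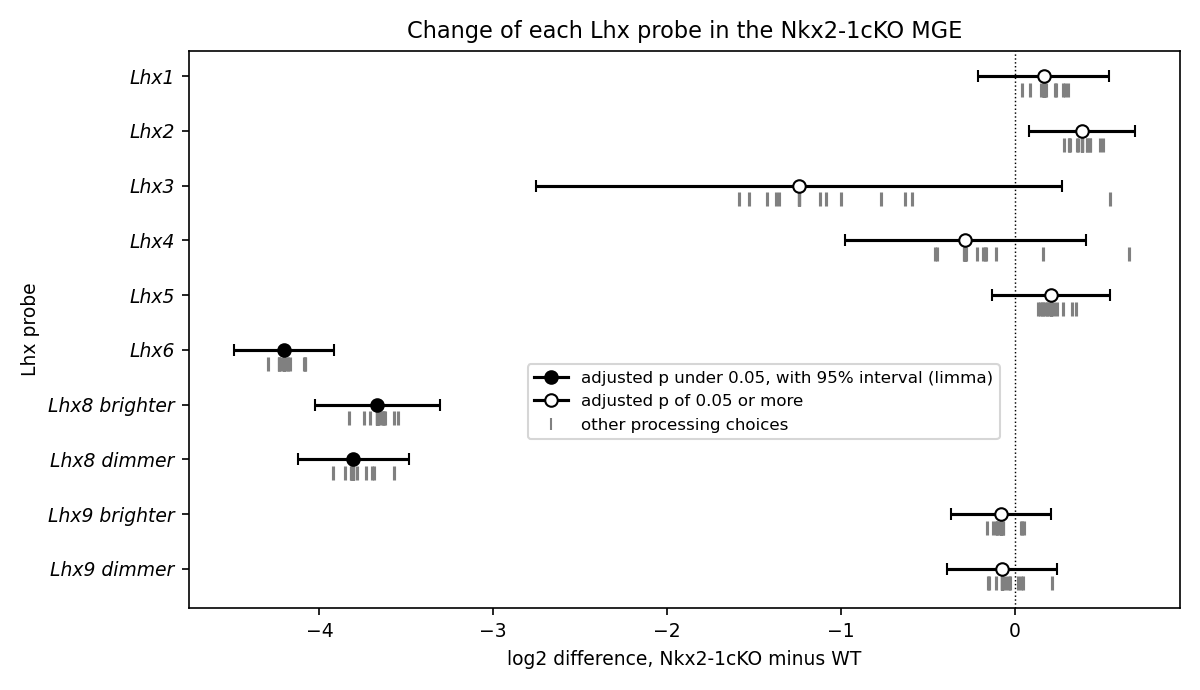
Log2 difference between Nkx2-1cKO and WT for each Lhx probe, with its 95% interval from limma over 4 arrays per group; grey ticks give the difference under each other processing choice tried. Lhx6 and Lhx8 stay between -4.29 and -3.55 under all of them, whereas Lhx3 spans -1.58 to 0.55.

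Outside the Lhx genes, the mouse LIM homeodomain genes are Isl1, Isl2, Lmx1a and Lmx1b. Isl1, a factor of striatal projection, cholinergic and motor neurons, rose: it read 0.83, 0.98, 1.03 and 0.75 on the WT arrays and 2.19, 2.17, 2.01 and 2.28 on the Nkx2-1cKO arrays. The lowest mutant array was above the highest WT array, and the mean was 2.40-fold higher (log2 difference 1.26, SE 0.09, n = 4 each, adjusted p = 0.00018, limma). Isl1 thus moved opposite to Lhx6 and Lhx8 within the same superfamily. Beside it, 7 of 16 markers of the lateral and caudal ganglionic eminences were higher and 0 lower, against 0.491% and 0.851% of all genes. The largest rises were Rarb at 1.51 and Zfp503 at 1.39 log2 units. Of these 7, 4 kept their call whichever array was left out. The list was chosen with earlier results of these data known, so its direction is not independent evidence. The summed signal of the list was 44.3 to 59.6 times the 75th percentile in WT and 82.7 to 90.9 times in Nkx2-1cKO. Meis2, which was singled out after its values were seen, gave most of it on every array except WT replicate 1. Without Meis2 the sum was 20.8 to 27.1 times in WT and 29.95 to 35.8 times in Nkx2-1cKO. Nr2f2 and Sp8, from the same list and singled out likewise, differed by -0.13 and 0.34 and were not called. The part of those tissues in the rise of Isl1 was not tested. Lmx1b, a factor of midbrain and hindbrain neurons, differed by -0.42 (adjusted p = 0.725, limma) and by -0.096 without WT replicate 1, and Isl2 and Lmx1a did not pass the filter on dim probes.

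The cofactors through which LIM homeodomain proteins act were measured with 10 genes, and 0 passed the test in either direction. Their median difference was 0.10, against -0.002 over all genes. Ldb1, the cofactor that bridges LIM homeodomain proteins, differed by 0.16 (adjusted p = 0.675), and its relative Ldb2 by 0.43 (adjusted p = 0.386). Among the competing LMO genes, Lmo1 differed by -0.39 (adjusted p = 0.348), Lmo3 by -0.22, Lmo4 by 0.24 and Lmo2 by 0.04. Rlim, which encodes a ubiquitin ligase that acts on LDB proteins, differed by -0.12, and the LDB-stabilising Ssbp2, Ssbp3 and Ssbp4 by -0.01, 0.22 and 0.25. At the shares of all genes called, 0.851% lower and 0.491% higher, a list of this size would be near 0 calls too, so the count sets the cofactors apart in no way.

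Genes linked to LHX6 or LHX8, or to the neurons these factors specify, were taken as a list of 16, chosen with earlier results of these data known, so that its direction is not independent evidence. In Nkx2-1cKO 11 of the 16 fell, 0 rose and 5 were not called, with a median difference of -1.65, against 0.851% of all genes lower, 0.491% higher and a median of -0.002. Of the neuropeptides of MGE-derived interneurons, Npy fell by 3.53 log2 units to 8.65% of WT and Sst fell by 1.73 to 30.2%. The homeobox genes Gbx2 and Gbx1 fell by 3.07 and 2.94. Maf, a transcription factor of interneurons, fell by 2.51, and Sox6 and Satb1, which act in interneuron migration and maturation, fell by 1.64 and 0.61.

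Receptors and ligands on the list also fell. Nxph1, which encodes a neurexin ligand, fell by 2.02 log2 units. The morphogen gene Shh fell by 1.71 and Erbb4, a neuregulin receptor, by 1.65. Erbb4 was dim, with a mutant mean of -6.49, and cleared the background on 3 of the 4 mutant arrays. Its call was kept in only 2 of the 8 fits that left out 1 array. Satb1 kept its call in 6 of 8, and the 9 other genes that fell kept theirs in all 8. The chemokine receptor gene Ackr3 fell by 0.85, while Cxcr4, which encodes the other receptor of the same chemokine, differed by -0.19 (adjusted p = 0.660, limma). The cholinergic genes Chat and Slc18a3, which encode the enzyme that makes acetylcholine and its vesicular transporter, differed by -0.58 (adjusted p = 0.661, limma) and -1.57 (adjusted p = 0.191, limma); both were dim, and they cleared the background on 2 and 3 of the 4 mutant arrays. Chat differed by -0.28 without WT replicate 1. Cux2 and Npas1 differed by -0.35 and 0.48 and were not called. The summed signal of the list was 43.4 to 50.1 times the 75th percentile on WT arrays and 18.2 to 20.5 times on mutant arrays.

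**Figure D4:**
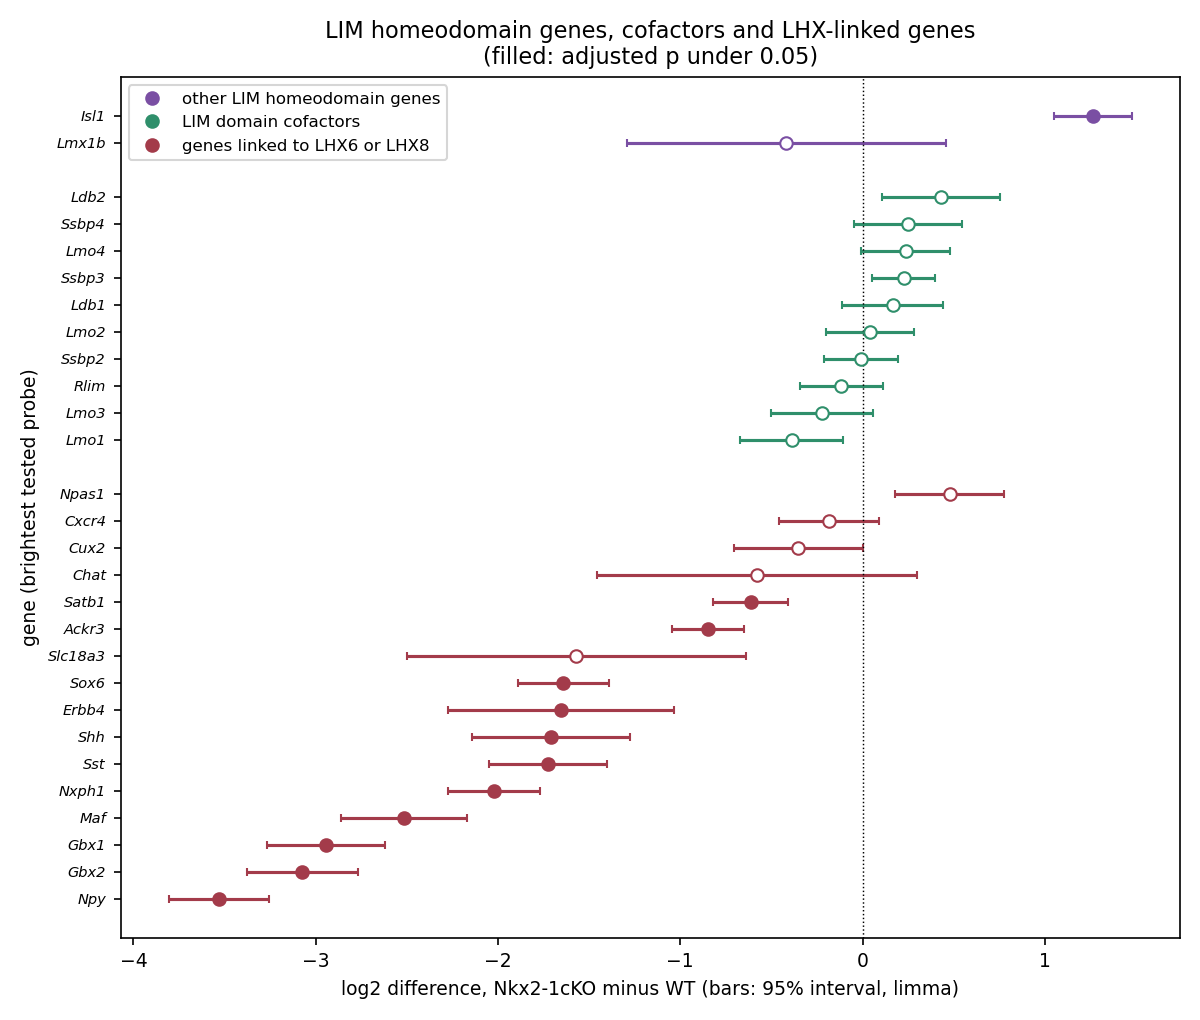
Log2 difference between Nkx2-1cKO and WT for the other LIM homeodomain genes, the LIM domain cofactors and the genes linked to LHX6 or LHX8, 1 tested probe per gene, with 95% intervals from limma over 4 arrays per group; filled points had an adjusted p under 0.05. Isl1 lies at 1.26, the 10 cofactors lie between -0.39 and 0.43 with none called, and 11 of the 16 linked genes were called lower.

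The genes whose profile over the 8 arrays was most like that of Lhx6, by Pearson correlation among 14418 genes, were Nkx2-1 (r = 0.997), Sema3e, a semaphorin (r = 0.995), Adra1b, an adrenergic receptor (r = 0.995), Elovl7, a fatty acid elongase (r = 0.994), and Nxph1 (r = 0.993). For Lhx8 they were Gbx2 (r = 0.998), Vegfc, a vascular growth factor (r = 0.996), Nkx2-1 (r = 0.995), Kiz, a centrosomal protein gene (r = 0.993), and Gbx1 (r = 0.992). Lhx6 and Lhx8 correlated with each other at r = 0.989. The 8 points of each correlation fall into the 2 genotype groups and share their arrays, so these values mostly restate a steady difference between groups and are given as descriptions. Likeness of profile did not mean likeness of size: Vegfc differed by -0.60 and Kiz by -0.75 log2 units.

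Genes next to the Lhx genes on the chromosome were also looked at. Of 32 neighbours, the nearest 2 on each side of each Lhx gene, 12 had a tested probe and 0 were called in either direction, with differences from -0.24 to 0.42 and a lowest adjusted p of 0.416 (limma). With 0.851% of all genes called lower and 0.491% higher, this count is near the background. Beside Lhx6, Ndufa8 differed by -0.03, Morn5 by -0.20, Rbm18 by -0.18 and Mrrf by 0.11. None of the 4 neighbours of Lhx8 had a tested probe.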

How the data were processed

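RNA of E13.5 MGE was measured on 8 single-colour Agilent arrays (4 WT, 4 Nkx2-1cKO), grouped by their titles. The deposited intensities are the authors' Agilent Feature Extraction output, background-subtracted processed signals not normalized between arrays; the version is 10.1 per the labels and 10.7.3.1 per the file headers. Control and outlier spots were left out, spots of a probe averaged, and log2 signals set relative to each array's 75th percentile. Probes called well above background on 4 or more of the 8 arrays were tested with limma 3.58.1 (R 4.3.3; lmFit, eBayes with a variance trend) and Benjamini-Hochberg adjustment at 0.05; 50 missing values among the tested probes were left missing. The procedure was tested on simulated data. Symbols came from RefSeq transcript or Ensembl accessions in the GRCm38.p6 gene table, which named 24844 of 41174 probes. A gene is represented by its brightest tested probe.

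The Lhx genes, the marker and pathway lists, and the motifs were chosen with earlier results of these data known, and some genes of the lists are not reported here. Genes named are the Lhx genes, Nkx2-1, the genes of the lists on LIM homeodomain genes, cofactors and LHX6 or LHX8, the 5 genes most correlated with Lhx6 and with Lhx8, chromosomal neighbours, and the genes with the largest changes past the threshold in other lists. Other marker lists were of erythroid cells (0 of 8 tested genes called), endothelium (0 of 6), microglia (0 of 6), mesenchyme and meninges (0 of 8), and thalamus with hypothalamus (1 of 7, Tcf7l2, higher by 0.99 log2 units). The linear signal of a list was summed per array.

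Alternatives were other scalings, the normexp background (offset 50, on the median signal), other filters on dim probes, slide and replicate number as blocks, no variance trend, array weights, and each array left out. Deviations of same-numbered WT and Nkx2-1cKO arrays correlated at -0.20, -0.29, -0.19 and -0.48, but these arrays always lay on different slides. Differently numbered arrays on different slides correlated at -0.45 to -0.23, and arrays on the same slide at -0.02 to 0.57. Among arrays on different slides, same-numbered and differently numbered pairs thus covered much the same range. The correlations gave no sign that replicate numbers pair the samples, though no source used here says whether they do. The number of arrays limits the precision.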

Additional observations from a re-analysis of the deposited data

How the results depend on the processing

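Under all alternatives that could be run, 3 Lhx probes were called, all lower, and none higher. Lhx6 ranged from -4.29 to -4.08, the brighter Lhx8 probe from -3.83 to -3.55 and the dimmer from -3.92 to -3.57. The count of all probes called moved more. From 192 lower and 132 higher, it became 115 lower with median centring, 90 lower and 65 higher with normexp, 208 higher with slide as a block, 87 higher without the variance trend and 291 lower with array weights. With a replicate block it was 65 lower and 8 higher, with the 3 Lhx probes among the calls. Whether the replicate numbers pair the samples is not known. Leaving out single arrays gave 130 to 174 lower and 65 to 118 higher (fewest lower without WT replicate 2, fewest higher without Nkx2-1cKO replicate 1). Normexp put the median difference of all probes at 0.18. The cause of these shifts was not tested.

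The uncalled differences that changed sign were Lhx3 (0.55 with normexp), Lhx4 (0.16 with quantile normalization, 0.66 with normexp), the brighter Lhx9 probe (0.041 with median centring, 0.038 with array weights; -0.16 to 0.051 leaving out single arrays, positive without WT replicate 1) and the dimmer (0.046 with median centring, 0.22 with normexp, 0.021 with array weights; -0.15 to 0.035 leaving out single arrays, positive without WT replicate 1). Lhx3 had no value where all 8 arrays had to be above background. The count of linked genes called lower, an alternative set chosen after seeing the data (as was leaving out arrays for single list genes, and Meis2 from a sum), was 8 with the replicate block and 9 to 11 otherwise. Low signal over background limits Lhx3 and Lhx4, and 4 arrays a group limit the permutation tests.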
